A study of Homo sapiens with 6 samples.

Results

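Enzymes that make or deliver the building blocks of DNA were followed by the transcripts of 9 genes: RRM1, RRM2, RRM2B, TYMS, TK1, DUT, CAD, DCK and DTYMK. They were chosen by function, as enzymes of nucleotide and deoxynucleotide synthesis, with earlier results of these data known. Each of the 9 symbols matched 1 row among 61280 gene rows, and all 9 passed the filter on low values that left 14621 rows. RNA was sequenced from the human breast cancer line MDA-MB-231, which is triple-negative and mutant for p53. The 3 irradiated libraries came from cells given an X-ray dose of 20 Gy and cultured for a further 24 h, and the 3 control libraries came from untreated cells. No culture time is given for the controls, and the labels do not say whether replicates were separate cultures, so the p-values reflect the spread between libraries, which could be technical only. Values are TPM, a transcript's length-corrected share of its library, and the read depth is unknown.

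DNA synthesis needs all 4 deoxynucleotides in balance. Ribonucleotide reductase, a complex of the large subunit encoded by RRM1 and a small subunit encoded by RRM2 or RRM2B, reduces ribonucleotides to deoxynucleotides. Thymidylate takes its own route: dUTPase (DUT) turns dUTP into dUMP, thymidylate synthase (TYMS) methylates dUMP to dTMP with a folate cofactor, and thymidylate kinase (DTYMK) phosphorylates dTMP. Thymidine kinase 1 (TK1) and deoxycytidine kinase (DCK) recover nucleosides by salvage, and CAD carries out the opening steps of pyrimidine synthesis. In dividing cells TK1, TYMS, RRM2 and the nuclear form of DUT are known to be tied to S phase, and E2F factors are known activators of such genes.

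The line's markers fitted its label in part. Vimentin (VIM) lay at 1583 to 1599 TPM in irradiated and 1936 to 2011 TPM in control libraries, CD44, AXL and EGFR were also present, PGR was listed at 0 in every library, and ESR1 and CDH1 did not exceed 0.4 TPM. ERBB2 was at 22.8 to 27.9 TPM in irradiated and 20.9 to 24.6 TPM in control libraries. EPCAM, an epithelial gene, was at 8.32 to 8.61 TPM in irradiated and 9.43 to 11.3 TPM in control libraries. The leukocyte gene PTPRC read 40.4 TPM in irradiated replicate 1, against at most 0.45 TPM in the other libraries. The markers PECAM1, ALB and DES did not exceed 1.75 TPM. DUT and TYMS, the members that passed the test, changed by -0.61 and -0.31 on the log2 scale without that library. In bulk RNA, fewer cells in S phase and less transcript per cell cannot be told apart.

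Promoter letters were read from RefSeq windows on GRCh38.p14, 250 bases before to 50 bases after a start, for the 8 members for which a window was used. The windows were searched on both strands for the E2F letters TTTCCCGC and TTTGGCGC, the NF-Y letters CCAAT and the E-box CACGTG, none of which contains another. An E2F string stood in 3 of the 13 member windows, 1 each for DUT, TYMS and DCK. Of all 35116 windows 2.27% hold one, and of those of tested genes 3.41%. Counted by gene, 3 of the 8 members and 4.70% of the tested genes with a window hold one in at least 1 window; no test was made of these shares. The 150 bases before the start of DUT that carries both strings (chr15:48332047-48332196, plus strand, the most downstream of 4 RefSeq starts) and before the TYMS start (chr18:657503-657652, plus strand) are shown because these were the only members that passed the test; capitals mark the E2F letters, which in both genes include GCGGGAAA, the reverse complement of TTTCCCGC.
DUT: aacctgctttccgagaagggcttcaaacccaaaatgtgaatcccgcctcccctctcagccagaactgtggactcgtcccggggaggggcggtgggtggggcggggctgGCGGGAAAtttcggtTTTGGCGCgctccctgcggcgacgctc
TYMS: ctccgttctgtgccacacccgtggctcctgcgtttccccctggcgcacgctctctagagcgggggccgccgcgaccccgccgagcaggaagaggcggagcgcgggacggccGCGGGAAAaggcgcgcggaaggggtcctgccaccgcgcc

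The E2F letters began 42 and 27 bases before that DUT start and 39 bases before the TYMS start. In DCK, which did not pass the test, TTTGGCGC was read on the opposite strand from 21 bases after the start, and an E-box began 116 bases before it. CCAAT stood in 6 of the 13 member windows, those of CAD, DTYMK, RRM1, RRM2 and TK1, and in 34.6% of all windows. Counted by gene, 5 of the 8 members and 43.4% of the tested genes with a window hold it. RRM2 carried it 3 times, from 123, 93 and 66 bases before the downstream of 2 starts on chromosome 2, each time followed by the same letters gggaaggg, and a further time from 249 bases before the upstream start. TK1 carried it 2 times on the opposite strand (as ATTGG) before a start on chromosome 17. Short stretches around the matches of TK1 and the 3 of RRM2 that lie together, with CCAAT or ATTGG in capitals, are given as examples. Those of CAD, DTYMK and RRM1 are not shown. Only exact letters were searched, so variant sites, also of E2F, were not looked for. A match is a string of letters, and no binding was measured here.
RRM2, chr2:10122606-10122630: caaggcgcagCCAATgggaagggtc
RRM2, chr2:10122636-10122660: catggcacagCCAATgggaagggcc
RRM2, chr2:10122663-10122687: ggcaccaaagCCAATgggaagggcc
TK1, chr17:78187115-78187139, minus strand: ccgggcgctgATTGGccccatggcg
TK1, chr17:78187084-78187108, minus strand: ccggctcgtgATTGGccagcacgcc

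Of the 9 transcripts, 2 fell and none rose at a threshold of 0.05 on p-values adjusted over all tested genes (limma on log2-transformed TPM plus 1, Benjamini-Hochberg). DUT fell to 66.5% of its control mean and TYMS to 81.3%. Among all tested genes 10.6% were called, 4.07% lower and 6.53% higher. RRM2 was lower and RRM1 higher in every irradiated library than in any control library, but neither passed the test. RRM2B, CAD, DCK, TK1 and DTYMK had overlapping groups. The median log2 change of the 9 members was 0.02, against 0.03 over all tested genes. After median-ratio scaling 3 members were called lower, the third being RRM2, and the balance over all genes turned from 955 higher and 595 lower calls to 704 higher and 1028 lower.

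**Figure D1:**
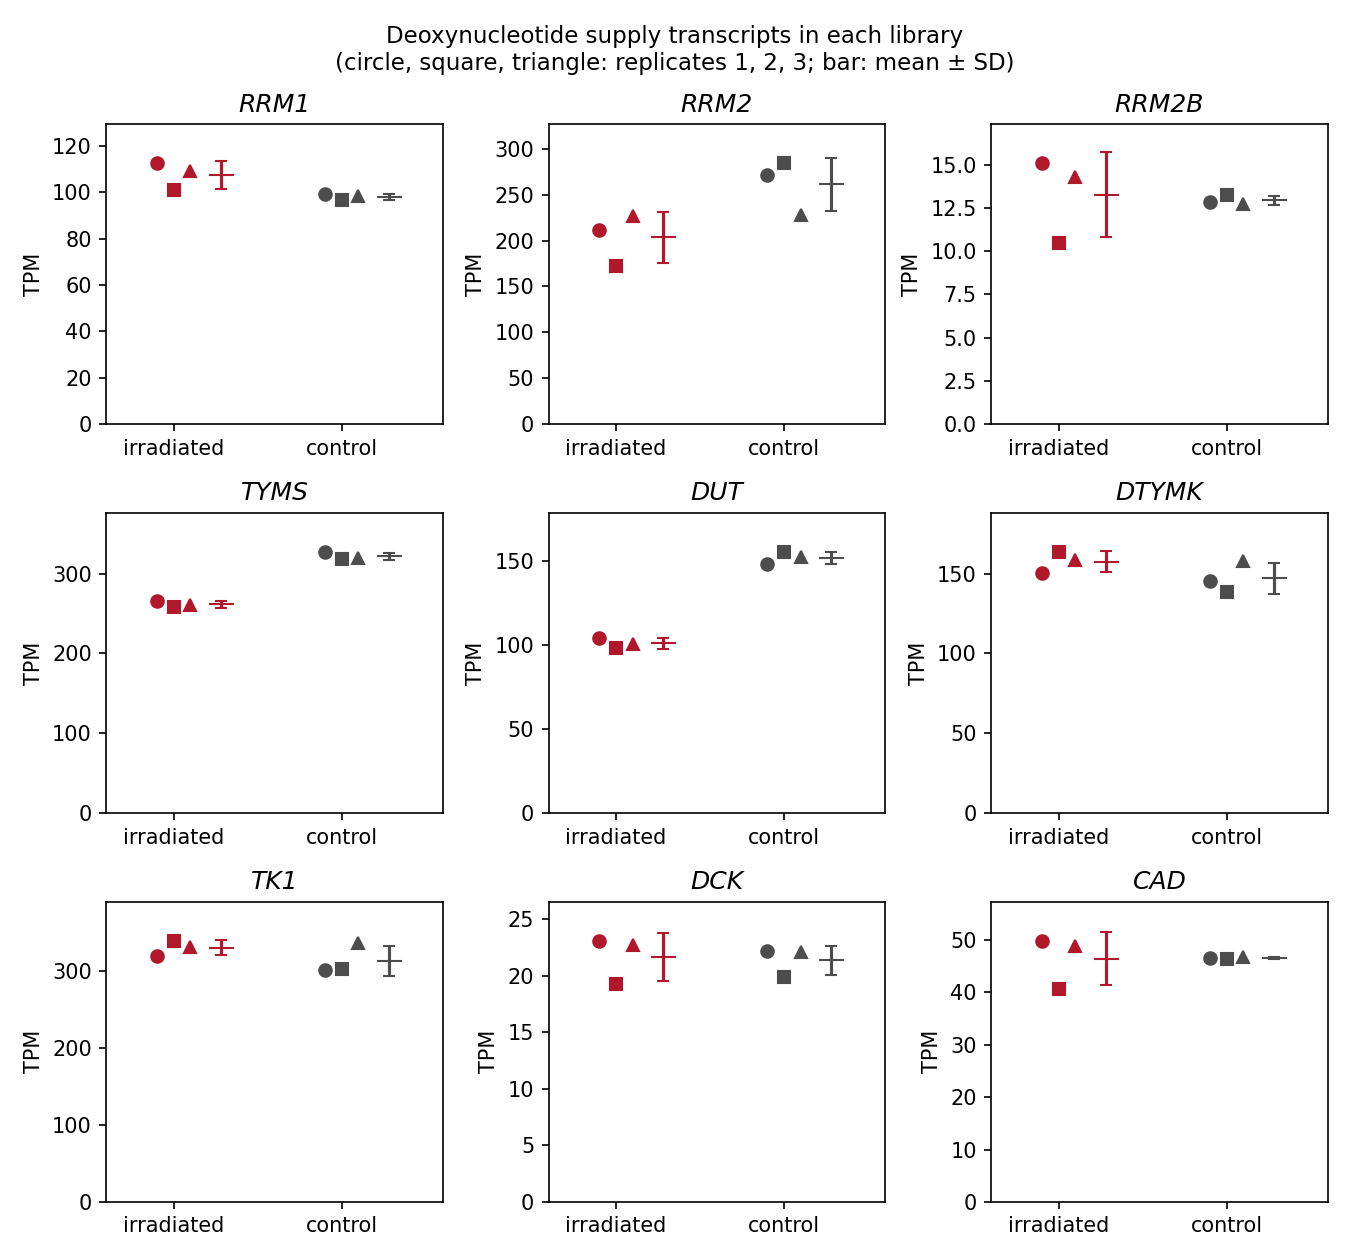
TPM of each of the 9 transcripts (vertical axes, each from 0) in the 3 irradiated and 3 control libraries, with circles, squares and triangles for replicates 1, 2 and 3 and bars for mean ± SD. DUT lies at 97.9 to 104 TPM in irradiated and 148 to 155 TPM in control libraries, and irradiated replicate 2 (square) is the lowest of its group for 7 of the 9.

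The thymidylate branch held both calls. DUT, which removes dUTP before it can be built into DNA and supplies dUMP (ENSG00000128951; chromosome 15, 48331011 to 48343373, hg38), had 104, 97.9 and 101 TPM in irradiated libraries, against 148, 155 and 152 TPM in control libraries. The groups were far apart relative to their spread, with means of 101 ± 3.12 TPM after irradiation and 152 ± 3.62 TPM in controls (SD, n = 3 each). The log2 change of DUT was -0.58 ± 0.04 SE (95% interval -0.69 to -0.48, limma adjusted p = 0.00201), and DUT ranked 13 by p-value among the 14621 tested genes. It passed under all 17 alternatives. The table gives 1 value per gene, so the nuclear and mitochondrial forms of dUTPase, which start at different first exons, were not separated.

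TYMS, which makes dTMP and is the target of fluorouracil (ENSG00000176890; chromosome 18, 657604 to 673578), had 265, 258 and 261 TPM in irradiated libraries, against 327, 318 and 319 TPM in control libraries. Every irradiated value was below every control value, and replicates of a group differed little. Its log2 change was -0.30 ± 0.03 SE (95% interval -0.38 to -0.22, adjusted p = 0.00617 by limma), and it also passed under all 17 alternatives. Antisense genes overlap both ends of TYMS and the strand setting is not given in the sources used here, so their reads cannot be told apart from those of TYMS. At the 3′ end ENOSF1 averaged 19.8 TPM in irradiated and 19.4 TPM in control libraries, and at the 5′ end TYMSOS averaged 6.30 TPM in irradiated and 8.73 TPM in control libraries (limma adjusted p = 0.87 and 0.102).

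DTYMK, the kinase that follows TYMS (ENSG00000168393; chromosome 2), did not pass the test. It had 150, 164 and 159 TPM in irradiated libraries, against 145, 138 and 158 TPM in control libraries, and control replicate 3 lay inside the irradiated range. Its log2 change was 0.10 ± 0.06 SE (95% interval -0.04 to 0.24, limma adjusted p = 0.323). TK1, which feeds the same dTMP pool from thymidine (ENSG00000167900; chromosome 17), had 319, 339 and 330 TPM in irradiated libraries, against 300.3, 302 and 335 TPM in control libraries. Control replicate 3 again overlapped the irradiated libraries, and the log2 change of TK1 was 0.08 ± 0.05 SE (95% interval -0.05 to 0.20, limma adjusted p = 0.388). For both genes the sign turned after the correction for GC content and transcript length.

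The order of the levels differed between the groups. TK1 was above TYMS in 3 of 3 irradiated libraries and in 1 of 3 control libraries. DTYMK was above DUT in 3 of 3 irradiated and 1 of 3 control libraries, and RRM1 was above DUT in 3 of 3 irradiated and 0 of 3 control libraries. TYMS stayed above RRM2, and RRM2 above DTYMK, in all 6 libraries. At the low end, means in irradiated and control libraries were 46.5 and 46.5 TPM for CAD, 21.7 and 21.4 TPM for DCK, and 13.3 and 12.9 TPM for RRM2B. TPM is corrected for length, but remaining effects of length or GC content on the order between genes were not tested.

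Of the ribonucleotide reductase transcripts none passed the test, and those of the subunits RRM2 and RRM1 differed from the controls with opposite signs. RRM2, the small subunit that dividing cells make and then degrade (ENSG00000171848; chromosome 2, 10120698 to 10131419), had 212, 172 and 226 TPM in irradiated libraries, against 271, 284 and 228 TPM in control libraries. The groups did not overlap, but irradiated replicate 3 and control replicate 3 were nearly equal. The log2 change of RRM2 was -0.36 ± 0.12 SE (95% interval -0.63 to -0.09, limma adjusted p = 0.0917). It was larger than that of TYMS and less certain, because the RRM2 values varied by 13.7% in irradiated and 11.2% in control libraries (coefficient of variation), against 1.49% and 1.48% for TYMS. RRM2 passed the test after median-ratio scaling (log2 change -0.41, adjusted p = 0.0418) and under no other of the 17 alternatives.

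RRM1, the large subunit that holds the active site (ENSG00000167325; chromosome 11, 4094707 to 4138876), had 112, 101 and 109 TPM in irradiated libraries, against 99.1, 96.7 and 98.6 TPM in control libraries. All irradiated values were higher, replicate 2 only just. Its log2 change was 0.13 ± 0.05 SE (95% interval 0.01 to 0.25, limma adjusted p = 0.152), and without irradiated replicate 2 it was 0.18 with an adjusted p of 0.0444. Of all tested genes 34.9% had no overlap between the groups, 20.4% with higher and 14.5% with lower irradiated values; among the 9 members 1 was higher and 3 were lower in this sense.

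RRM2B, the alternative small subunit that p53 induces after DNA damage in cells with functional p53 (ENSG00000048392; chromosome 8), did not pass the test. It had 15.1, 10.5 and 14.3 TPM in irradiated libraries, against 12.8, 13.2 and 12.7 TPM in control libraries. The irradiated libraries lay on both sides of the controls, with replicate 2 below them and the other replicates above. The log2 change of RRM2B was 0.02 ± 0.13 SE (95% interval -0.29 to 0.33, limma adjusted p = 0.943). Leaving out irradiated replicate 2 gave 0.17 (adjusted p = 0.15), leaving out replicate 1 gave -0.08, and the sign also turned without irradiated replicate 3 and after median-ratio scaling or quantile normalization.

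**Figure D2:**
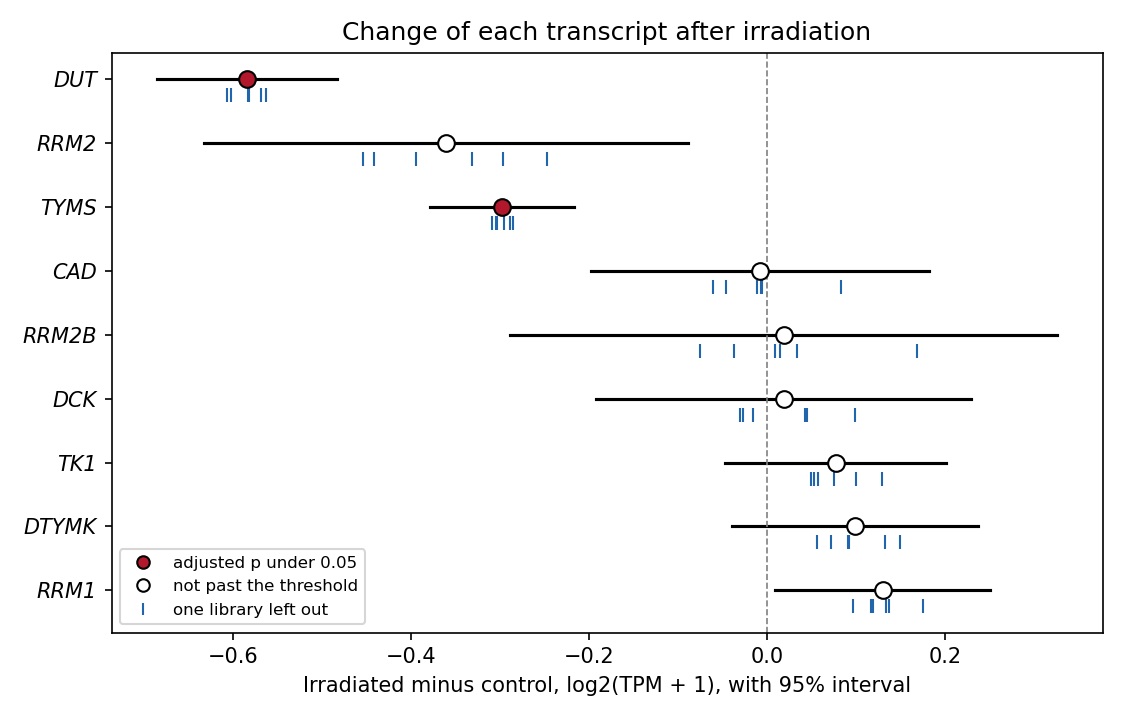
Log2 change of each transcript, irradiated minus control on log2(TPM + 1) (horizontal axis), with its 95% interval (black line) and the value with a library left out (blue ticks). Red points mark DUT and TYMS, the members past the threshold, and the interval of RRM2B reaches from -0.29 to 0.33.

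Ratios of 2 transcripts within a library do not depend on the library's total. The TPM of RRM2 was 1.88, 1.71 and 2.07 times that of RRM1 in irradiated libraries, against 2.73, 2.94 and 2.31 times in control libraries. The RRM2 to RRM1 ratio averaged 1.89 ± 0.179 after irradiation and 2.66 ± 0.318 in controls (SD, n = 3 each), with no overlap. RRM2B reached 0.0712, 0.0607 and 0.0630 of RRM2 in irradiated libraries, against 0.0474, 0.0465 and 0.0558 in control libraries. RRM2B was the scarcer of these small subunits in every library.

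The ratio of DUT to TYMS was 0.392, 0.380 and 0.387 in irradiated libraries, against 0.453, 0.488 and 0.478 in control libraries. DUT was lower relative to TYMS in every irradiated than in any control library. The ratio of TK1 to DCK, the salvage kinases for thymidine and for deoxycytidine, was 13.8, 17.6 and 14.5 in irradiated libraries, against 13.6, 15.2 and 15.2 in control libraries, and overlapped. A two-sided exact permutation test over the 20 assignments gave p = 0.1 for each of the ratios that did not overlap, the smallest p that 3 against 3 allows, and p = 0.8 for TK1 to DCK. Adjusted over the 4 ratios these exact values were 0.133 and 0.8, so no ratio passed 0.05.

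**Figure D3:**
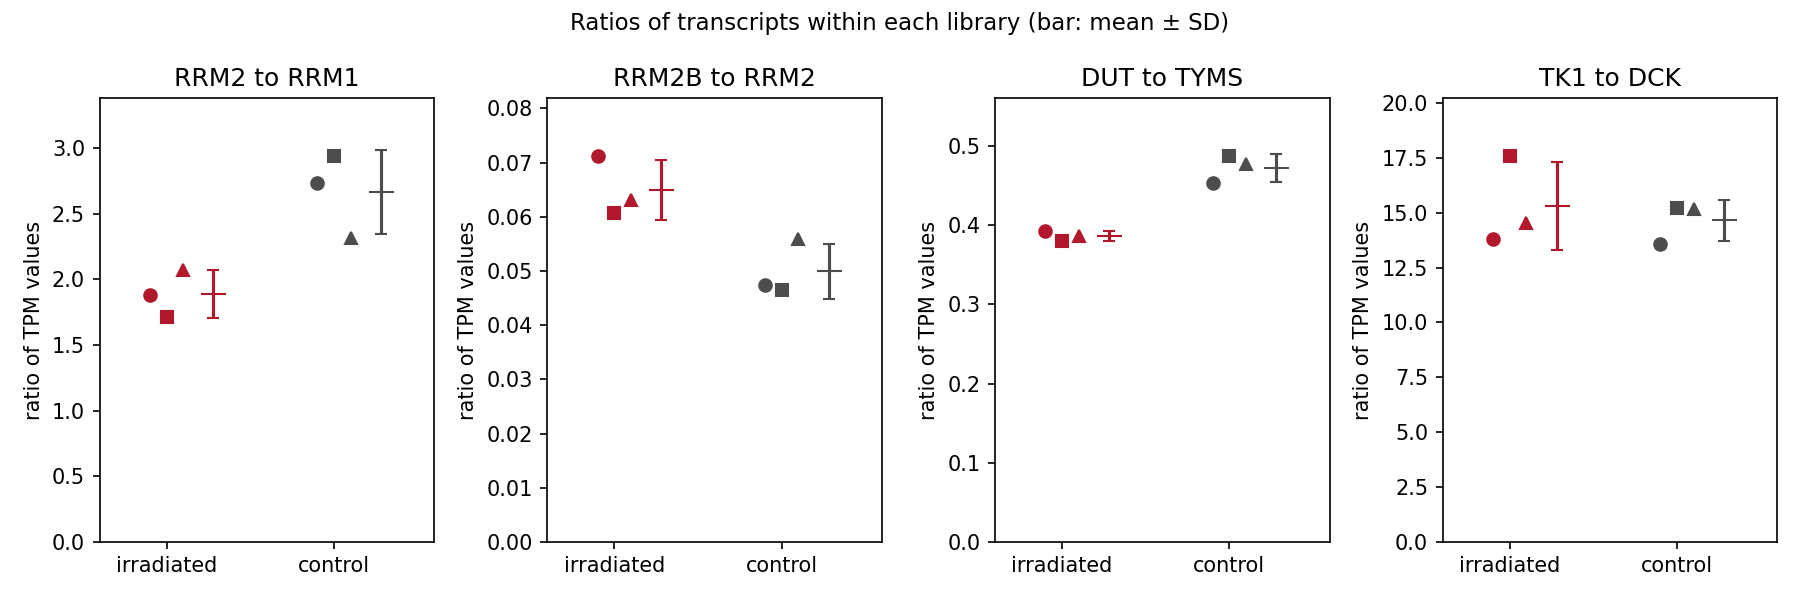
Ratios of TPM values within each library (vertical axes, each from 0) for 4 pairs of transcripts, in irradiated and control libraries, with bars for mean ± SD. RRM2 to RRM1 and DUT to TYMS are lower, and RRM2B to RRM2 higher, in all 3 irradiated libraries, and TK1 to DCK overlaps.

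The remaining members did not pass. CAD, which joins carbamoyl phosphate, aspartate and ring closure steps of pyrimidine synthesis in a single protein (ENSG00000084774; chromosome 2, 27217390 to 27243943), had 49.8, 40.7 and 48.9 TPM in irradiated libraries, against 46.6, 46.3 and 46.7 TPM in control libraries. The controls were almost identical, and irradiated replicate 2 lay below them while the other irradiated libraries lay above. Its log2 change was -0.01 ± 0.08 SE (95% interval -0.20 to 0.18, limma adjusted p = 0.961), and 0.08 without irradiated replicate 2. DCK, which phosphorylates deoxycytidine and activates drugs such as cytarabine and gemcitabine (ENSG00000156136; chromosome 4), had 23.1, 19.2 and 22.7 TPM in irradiated libraries, against 22.1, 19.9 and 22.1 TPM in control libraries. Its groups overlapped (log2 change 0.02 ± 0.09 SE, 95% interval -0.19 to 0.23, limma adjusted p = 0.914).

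Irradiated replicate 2 was the lowest of its group for 7 of the 9 members and the highest for TK1 and DTYMK. Its deviation from the other irradiated libraries was -0.45 for RRM2B, -0.34 for RRM2, -0.27 for CAD and -0.24 for DCK on the log2 scale, against -0.06 for DUT and -0.03 for TYMS. Across the 14244 tested genes with an annotated length and GC content, that library's median deviation was -0.21 in the third with the longest transcripts and 0.02 in the third with the shortest, and likewise -0.19 in the third with the lowest and -0.0074 in the third with the highest GC content. TK1 and DTYMK had longest annotated transcripts of 1681 and 1232 bases, with GC contents of 62.8% and 59.7%. RRM2B had 4931 bases and 36.4%, and CAD had 7265 bases and 57.7%. DUT had 2147 bases and 44.2%, and TYMS had 1662 bases and 49.8%. Irradiated replicate 2 was the lowest of its group for RRM2B, CAD, DUT and TYMS alike. The part of length and GC content in these ranks was not tested. After removal of trends on GC content and length the log2 changes were -0.57 for DUT, -0.33 for TYMS, -0.33 for RRM2 and 0.09 for RRM2B. DUT and TYMS had log2 changes of -0.56 and -0.29 without that library, and RRM2 -0.25.

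Reads shared with processed copies could blur DUT, RRM2 and TYMS. The 13 pseudogene rows named for the members held at most 1.23 TPM in any library. These rows do not show reads that were given to the member instead, so such sharing was not tested. RRM1-AS1, antisense to RRM1, was listed at 0 in all 6 libraries, and DUT-AS1 did not exceed 0.71 TPM. MOB1B overlaps DCK on the same strand and averaged 8.23 TPM in irradiated and 8.27 TPM in control libraries.

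The wider nucleotide pathway was described from 49 other genes, of which 48 passed the filter. Of these, 6 fell (12.5%) and 4 rose (8.33%), with a median log2 change of -0.04, and by sign 32 were lower and 16 higher. Over all tested genes 4.07% fell and 6.53% rose, and 45.1% had a negative and 54.9% a positive sign. The 4 rises were GUK1 and 3 enzymes of nucleoside breakdown, and the 6 falls were all in synthesis, folate or kinase steps. Pathway counts moved with the processing: they were 10 lower and 2 higher after median-ratio scaling, 6 lower and 7 higher after the GC and length correction, and 2 lower and 1 higher with no filter.

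The folate cycle, whose cofactor carries the methylene group that TYMS transfers, held 2 falls among 4 genes. All 4 had a negative sign (over all tested genes 4.07% fell and 45.1% were negative). SHMT2, the mitochondrial serine hydroxymethyltransferase, fell to 180 ± 7.01 TPM in irradiated libraries, against 227 ± 2.34 TPM in control libraries (SD, n = 3 each). Its log2 change was -0.33 ± 0.04 SE (limma adjusted p = 0.00709) and it passed in every alternative run. MTHFD2, the next mitochondrial enzyme, fell as well (log2 change -0.37 ± 0.08 SE, limma adjusted p = 0.0351). The other genes of this list, SHMT1 and MTHFD1, did not pass (log2 changes -0.08 and -0.13, limma adjusted p = 0.401 and 0.0954). The supply of the cofactor to TYMS was not measured.

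Of 13 genes of purine synthesis 2 fell and none rose, and 12 had a negative sign (over all tested genes 4.07% fell, 6.53% rose and 45.1% were negative). IMPDH2, the rate-limiting enzyme of guanine nucleotide synthesis, fell to 388 ± 2.98 TPM in irradiated libraries, against 468 ± 4.61 TPM in control libraries (log2 change -0.27 ± 0.03 SE, limma adjusted p = 0.0064). GART, which catalyses 3 steps of the purine ring, fell by 0.24 on the log2 scale (limma adjusted p = 0.0248). Among the 4 pyrimidine genes downstream of CAD, CTPS1, which makes CTP from UTP, fell (log2 change -0.23, limma adjusted p = 0.0462). In the salvage and kinase list of 16 genes, 15 were tested, and CMPK1, which phosphorylates CMP and UMP, fell (log2 change -0.26, adjusted p = 0.0391) while GUK1, the guanylate kinase, rose (0.29, adjusted p = 0.0167), both by limma.

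Of 12 enzymes that break nucleosides down or clean the pool 3 rose and none fell, where 6.53% of all tested genes rose and 4.07% fell. Their median log2 change was 0.18, against 0.03 over all tested genes. CDA, cytidine deaminase, which turns deoxycytidine into deoxyuridine, had 9.04, 9.24 and 8.94 TPM in irradiated libraries, against 4.56, 3.22 and 4.67 TPM in control libraries. The irradiated mean was 219% of the control mean, with no overlap (log2 change 0.98 ± 0.13 SE, limma adjusted p = 0.00921), and it passed in every alternative run. TYMP, thymidine phosphorylase, which cleaves the thymidine that TK1 would use, had 6.26, 7.27 and 7.60 TPM in irradiated libraries, against 4.86, 3.44 and 3.60 TPM in control libraries (log2 change 0.70 ± 0.14 SE, limma adjusted p = 0.0259). ADA, adenosine deaminase, rose by a log2 change of 0.43 ± 0.10 SE (limma adjusted p = 0.0423). SAMHD1, which hydrolyses deoxynucleotide triphosphates, had 36.0, 28.8 and 34.6 TPM in irradiated libraries, against 27.2, 28.97 and 27.6 TPM in control libraries, and did not pass (log2 change 0.23, limma adjusted p = 0.142). CDA, TYMP and ADA are weakly expressed, and the pseudocount of 1 TPM understates such changes.

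**Figure D4:**
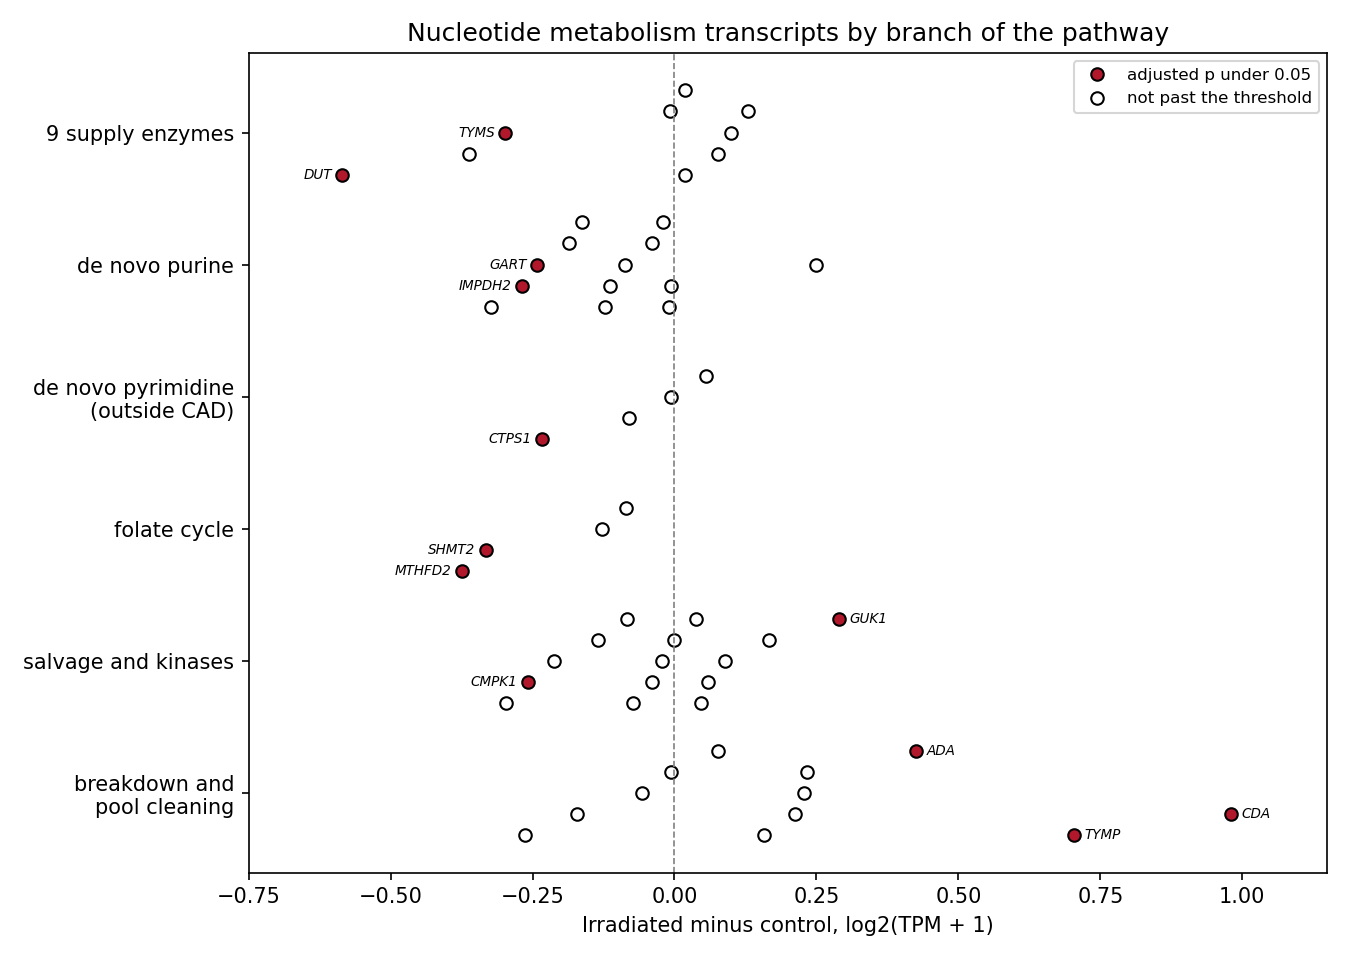
Log2 change of nucleotide metabolism transcripts, irradiated minus control on log2(TPM + 1) (horizontal axis), by branch of the pathway (rows, points spread vertically for legibility). Named red points passed the threshold; those of the synthesis and folate branches lie left of 0, and the 3 of the breakdown branch, led by CDA at 0.98, lie right of it.

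Regulators and cell cycle genes were read beside the members. E2F1, an activator of S-phase genes, fell to 25.7 ± 0.651 TPM in irradiated libraries, against 33.0 ± 1.14 TPM in control libraries (log2 change -0.35 ± 0.06 SE, n = 3 each, limma adjusted p = 0.0154), and it was the only one of 5 regulators called, against 10.6% of all tested genes. Of the 6 cell cycle genes listed here 3 fell and none rose, where 4.07% of all tested genes fell and 6.53% rose. PCNA, the replication clamp, fell to 162 ± 2.83 TPM, against 230 ± 10.2 TPM in controls (log2 change -0.50 ± 0.04 SE, limma adjusted p = 0.00309). MKI67 (log2 change -0.57) and CCNE2 (-0.60) also fell (limma adjusted p = 0.0246 and 0.0207). The other genes, with log2 changes of 0.03 for CDC6, 0.02 for CCNA2 and 0.01 for CCNB1, did not pass (limma adjusted p = 0.724, 0.916 and 0.938). Cell cycle genes outside this list went both ways. For example, CDK1 rose (log2 change 0.49) and CDC20 fell (-0.43), with limma adjusted p = 0.00419 and 0.00328. The part of a changed cell cycle in the fall of DUT and TYMS was not tested.

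Among the called genes named from the pathway, regulator and cell cycle lists outside the 9, IMPDH2, SHMT2, CDA and PCNA passed in all 17 alternatives. GART, CTPS1, MTHFD2, GUK1, CMPK1, TYMP, ADA, E2F1, CCNE2 and MKI67 each lost the call in 4 to 11 of the 17, with no change of sign and adjusted p up to 0.145. All 10 lost it without control replicate 2 and in the fit with the replicate block, which keeps all 6 samples. The cause of these losses was not tested.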

How the data were processed

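The authors deposited 1 table of TPM values for 6 libraries, with 61280 gene rows and columns of equal total. Total RNA was made into libraries with a TruSeq kit, per the labels' protocols; HISAT2, StringTie, RSEM and hg38 are named without roles or versions, per the submitters' processing notes. TPM is a share of a library, so abundant transcripts that rise push the rest down.

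Sample titles gave the groups. Rows reaching 1 TPM in 3 or more of the 6 samples (14621) were compared on log2(TPM + 1), the scale of every fold change, with limma 3.58.1 in R 4.3.3 (eBayes with trend; 4 residual and 3.39 prior degrees of freedom). Tests were two-sided, adjusted by Benjamini-Hochberg, with a threshold of 0.05. The fit was also run on simulated data with independent noise, which lack library-wide deviations and so check the code alone. At most 0.479% of tested rows were identical between libraries of a group. Coordinates, GC content and the longest transcript came from GENCODE 29, on the hg38 assembly.

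The members and lists were chosen with earlier results of these data known. Named genes were the 9 members and, per other list, up to 4 called genes with the largest change. SHMT1, MTHFD1, SAMHD1, CDC6, CCNA2, CCNB1, CDK1, CDC20, overlapping genes and markers were named beside them. Of the listed pathway genes 2 are not reported here and enter no pathway count. The 17 alternatives changed the pseudocount (0.1), the filter (none, or 5 TPM), the scaling (median-ratio, quantile, no mitochondrially encoded genes), the genes (protein-coding alone), GC and length trends (removed as cubic curves), eBayes (no trend, or robust), the libraries (each left out) and the design (replicate block).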

Additional observations from a re-analysis of the deposited data

How the results depend on the processing

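The 2 falls among the members, DUT and TYMS, kept direction and call in all 17 alternatives, with log2 changes of -0.63 to -0.56 and -0.35 to -0.25. Leaving out a library gave 2 members called lower each time and 0 to 1 called higher. Counts for the other nucleotide genes were 2 to 4 lower and 1 to 4 higher with a library left out (6 and 4 with all libraries), 10 and 2 once median-ratio scaling was applied, 2 and 1 with no filter, 2 and 2 with eBayes without trend, 2 and 1 with the replicate block, and 7 higher after the GC and length correction. All genes called numbered 306 (without control replicate 2) to 1390 with a library left out, 497 with no filter, 993 with eBayes without trend and 362 with the replicate block, against 1550. The log2 change turned sign for members near 0: RRM2B (-0.029 with median-ratio scaling, -0.0073 with quantile normalization, and -0.076 to 0.169 with a library left out), TK1 (-0.027) and DTYMK (-0.0092) after the GC and length correction, CAD (0.0026 without mitochondrially encoded genes, and -0.060 to 0.083 with a library left out) and DCK (-0.029 with median-ratio scaling, and -0.031 to 0.099 with a library left out). The log2 difference of the TK1 to DCK ratio ran from -0.048 to 0.132 with a library left out, and the other 3 ratios kept their direction. The cause of these shifts was not tested, also where fewer samples or more rows were used. Deviations of same-numbered libraries had correlations of 0.03, -0.06 and -0.03 (n = 14621 genes), and the main fit did not take the numbers as pairs. Differently numbered libraries were not compared in this way, so these values cannot exclude a pairing. The replicate block left DUT (adjusted p = 0.0297) and TYMS (adjusted p = 0.0417) called by limma. Depth is unknown, so precision rests on 3 libraries a group.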
